A study of Homo sapiens with 6 samples.

Results

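The enzymes that add methyl groups to histone lysines or remove them were followed in A549, an established cell line grown from a human non-small cell lung tumour, after exposure to B35, a compound that the series names as an inhibitor of LSD1. Members were chosen by gene symbol alone, as the protein-coding genes of the KDM families from KDM2 to KDM8, KMT, SETD, SETDB, PRDM, NSD, SMYD, SUV39H and EHMT families together with DOT1L, ASH1L and RIOX1. The rule took 67 of the 58735 genes in the deposited files, and it left out KDM1A and KDM1B, which encode LSD1 and its relative LSD2. The 2 groups were wild-type A549 cells given B35 at 2 µM for 72 h and untreated wild-type A549 cells kept for the same time, with 3 libraries each. No solvent is named for the untreated cells. Nothing in the labels states that libraries of 1 group are separate cultures, so a p-value here measures the spread between libraries, which may be technical.

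Most histone lysine methyltransferases carry a SET domain and take the methyl group from S-adenosylmethionine, whereas DOT1L has another fold. The demethylases of the KDM2 to KDM8 families carry a JmjC domain and need iron, oxygen and 2-oxoglutarate, and some of them can act on trimethylated lysine. LSD1 uses flavin instead and removes only mono- and dimethylation, best known at H3K4, lysine 4 of histone H3. Methylation at H3K4, H3K36 and H3K79 is found at active genes, and methylation at H3K9, H3K27 and H4K20 mostly at silent or compacted chromatin. The PRDM proteins carry a relative of the SET domain beside zinc fingers, and most act as sequence-specific transcription factors, often by recruiting other enzymes.

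The libraries held between 17141478 and 18530670 counts each. The keratins KRT8, KRT18 and KRT7, which mark epithelial cells, averaged 456 to 1117 CPM (counts brought to 1 library size with TMM factors) in B35 cells and 526 to 1663 CPM in control cells. KRT19 was at 0.22 CPM in B35 cells and 0.24 CPM in control cells, and CDH1, the epithelial cadherin, was at 0.65 CPM in B35 cells and 1.34 CPM in control cells, so these epithelial markers were low. EPCAM, an epithelial adhesion protein, was at 7.21 CPM in B35 cells and 3.36 CPM in control cells. Of 6 leukocyte markers CD3E and CD68 had no count in any library, and the 6 summed to 2.79 to 3.33 CPM per B35 library and 2.14 to 3.05 CPM per control library. The 6 fibroblast markers summed to 19.8 to 22.8 CPM per B35 library and 27.1 to 27.3 CPM per control library, nearly all of it COL1A1, and the 4 endothelial markers to 7.38 to 9.44 CPM per B35 library and 5.85 to 9.22 CPM per control library, with KDR at 0. KDM1A, which encodes LSD1, averaged 184 ± 8.97 CPM in B35 cells and 198 ± 2.56 CPM in control cells (SD, n = 3 each) and did not pass the test (edgeR adjusted p = 0.432). A bulk library cannot tell a change in each cell from a change in the share of cells that express a gene.

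Of the 67 members, 57 had enough counts to test. Of these, 4 rose and 4 fell with B35 (edgeR's quasi-likelihood test with p adjusted by Benjamini-Hochberg, under 0.05). PRDM8, PRDM1, KDM5B and KDM6B rose, and PRDM10, PRDM11, DOT1L and KMT5A fell. That is 14% of the tested members, against 15.4% of all 14773 genes tested, of which 8.82% rose and 6.59% fell, so the share that changed was near the background. Among all members tested, 42 had a log2 fold change smaller than 0.25 in size, or 73.7%, against 55.9% of all genes tested. The tested members also had higher counts, with a median of 40.3 CPM against 24.9 CPM over all genes tested. The part of count level in that difference was not tested. The median log2 fold change was -0.02 over the tested members and 0.01 over all genes tested. Only PRDM8 moved by 2-fold or more, a log2 of at least 1. PRDM8 met the count filter only through its B35 libraries, so its place among the tested members depends on that rise. The number of changed members was 4 without any 1 of the control libraries, and 7, 5 and 6 without B35 replicates 1, 2 and 3 in turn. At an unadjusted p under 0.05 there were 15 members, or 26.3%, against 30.7% of all genes.

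**Figure D1:**
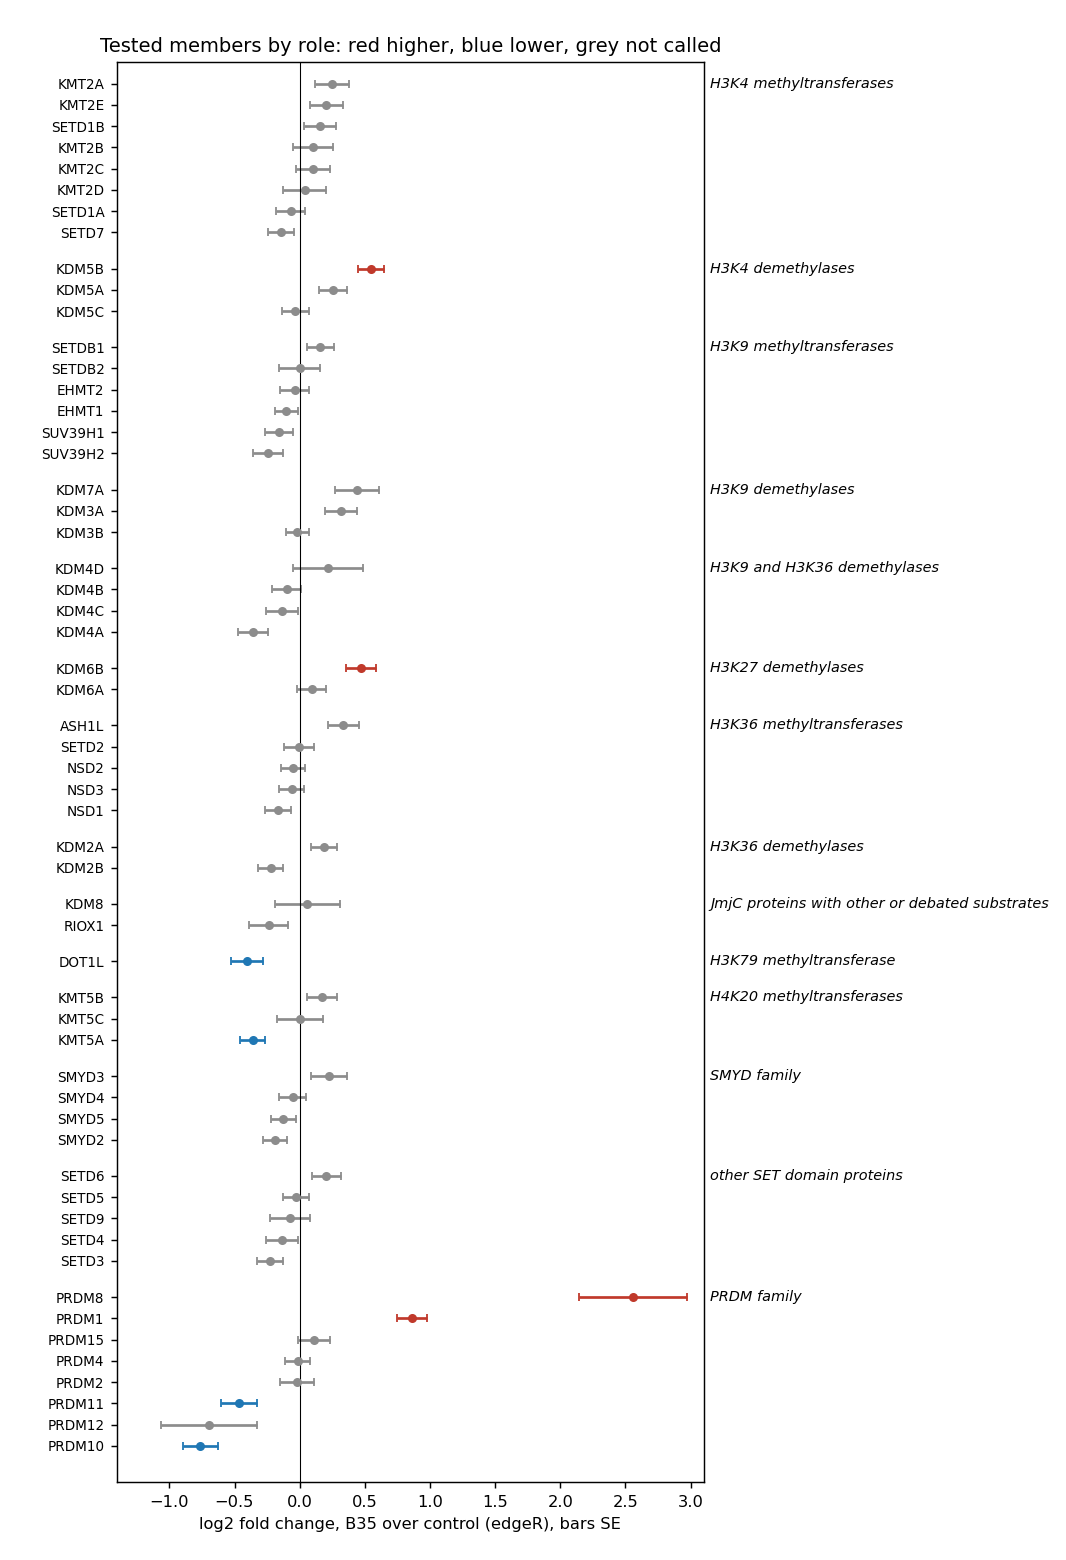
Log2 fold change of 56 of the 57 tested members (B35 over control, edgeR, bars are SE, 3 libraries a group), grouped by role along the vertical axis. The 8 members that passed the test are coloured, and the 48 tested members outside the PRDM family stay within 0.55 of 0.

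The KDM5 family removes methyl groups from H3K4 and holds KDM5B, the member outside the PRDM family with the largest called change. The promoters of its 3 expressed genes are shown so that close relatives with unequal fold changes can be read side by side. Each run holds 250 bases before and 50 after the transcription start in RefSeq (GRCh38.p14), 5′ to 3′, and capitals mark matches to the motifs searched. The windows lie on the minus strand at chr1:202808372-202808671 for KDM5B, chr12:389271-389570 for KDM5A and chrX:53225158-53225457 for KDM5C. In GENCODE 29 the KDM5B gene starts further upstream, at 202809470, so its window lies wholly inside the gene. The windows of KDM5A and KDM5C span their GENCODE starts, at 389454 and 53225422, so the windows are not placed alike.
KDM5B: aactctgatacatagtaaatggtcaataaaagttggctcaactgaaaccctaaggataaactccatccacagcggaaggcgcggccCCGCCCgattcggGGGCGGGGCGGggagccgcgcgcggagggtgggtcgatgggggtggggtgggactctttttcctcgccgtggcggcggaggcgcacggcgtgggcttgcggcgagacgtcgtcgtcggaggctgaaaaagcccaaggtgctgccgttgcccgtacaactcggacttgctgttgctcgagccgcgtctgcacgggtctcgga
KDM5A: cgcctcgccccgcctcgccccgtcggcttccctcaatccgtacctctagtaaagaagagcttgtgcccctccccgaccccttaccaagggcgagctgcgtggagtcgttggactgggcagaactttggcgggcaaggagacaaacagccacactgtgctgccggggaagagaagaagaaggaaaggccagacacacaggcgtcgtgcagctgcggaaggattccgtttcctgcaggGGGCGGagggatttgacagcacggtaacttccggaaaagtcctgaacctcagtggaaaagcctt
KDM5C: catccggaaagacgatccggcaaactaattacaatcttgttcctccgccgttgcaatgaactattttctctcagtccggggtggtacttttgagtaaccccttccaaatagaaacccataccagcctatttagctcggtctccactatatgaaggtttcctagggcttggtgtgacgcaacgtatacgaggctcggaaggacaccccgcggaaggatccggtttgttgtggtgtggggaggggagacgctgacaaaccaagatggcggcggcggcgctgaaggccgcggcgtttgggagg

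The motifs, searched on both strands, were the GC box (GGGCGG), the CCAAT box (CCAAT), the TATA box (TATAAA), the E-box (CACGTG), the core of the hypoxia response element (ACGTG, which lies within every E-box) and the AP-1 site (TGAGTCA). The GC box was the only one of these found in the 3 windows. It had 3 matches in the KDM5B window, of which a pair overlap, 1 in the KDM5A window and none in the KDM5C window. The window of KDM5B held 34 CpG dinucleotides, that of KDM5A 20 and that of KDM5C 22. RefSeq promoters matched 41 of the 67 members by symbol. KDM5B was the only called member among the 41, and some of the 41 had too few counts to test. A GC box stood in 33 of the 41, or 80.5%, against 72.7% of the 7312 promoters of tested genes and 43% of all 22112 promoters. The hypoxia core stood in 9 member promoters, or 22%, against 27.6% of those of tested genes and 21.3% of all. Of member promoters 17.1% held the E-box, 39% the CCAAT box, 2.44% the TATA box and 4.88% the AP-1 site. Among promoters of tested genes these shares were 10.6%, 37.7%, 5.17% and 3.2%, and among all promoters 7.28%, 36.2%, 12.7% and 5.12%, in the same motif order. The only member promoter with a TATA box was that of SMYD1, which had no count in any library. All these motif matches are a description of the sequence and carry no test.

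KDM5B (ENSG00000117139, hg38 chromosome 1, 202724495 to 202809470, minus strand), a demethylase of di- and trimethylated H3K4, had 103, 87.6 and 85.6 CPM in the 3 B35 libraries and 62.4, 61.4 and 65.1 CPM in the 3 control libraries. Every B35 library was above every control library, with B35 replicate 1 the highest. The rise was 1.46-fold (log2 0.55 ± 0.10 SE, edgeR adjusted p = 0.00534), and the call held in all 15 alternative fits. Without B35 replicate 1 it was smaller, at log2 0.46 (edgeR adjusted p = 0.00229). KDM5A, a close relative, had 57.8, 48.5 and 48.5 CPM with B35 and 40.9, 45.2 and 43.5 CPM in control cells. Its groups did not overlap either, but the difference did not pass (log2 0.26 ± 0.11 SE, edgeR adjusted p = 0.128). KDM5C, the X-linked member, had 241, 279 and 300 CPM with B35 and 257, 298 and 285 CPM in control cells, and these groups overlapped (log2 -0.03 ± 0.10 SE). Whether the fold changes of the 3 genes differ from each other was not tested.

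The 8 tested members listed here as writers of H3K4 methylation showed no call. Their log2 fold changes ran from -0.14 for SETD7 to 0.25 for KMT2A. KMT2A, which maintains H3K4 methylation at developmental genes, had 161, 117 and 133 CPM with B35 and 100, 118 and 127 CPM in control cells. Its groups overlapped, B35 replicate 1 was the highest library, and without that library the log2 difference was 0.12. It shares 17.9% of its exon length with AP001267.5 on the same strand. KMT2D, which with KMT2C marks enhancers, had 114, 109 and 142 CPM with B35 and 87.8, 141 and 127 CPM in control cells. The control libraries of KMT2D alone spanned nearly the whole range. KMT2C, at 95.7, 65.8 and 76.1 CPM with B35 and 70.6, 74.0 and 76.5 CPM in control cells, had a log2 of 0.10 that became -0.06 without B35 replicate 1. SETD1A and SETD1B, which make most trimethylated H3K4 at promoters, had log2 fold changes of -0.07 and 0.16.

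KDM6B (ENSG00000132510, chromosome 17, 7839904 to 7854796, plus strand), a demethylase of H3K27 known to be induced by inflammatory signals in macrophages, had 29.8, 31.5 and 35.5 CPM with B35 and 21.1, 23.6 and 25.0 CPM in control cells. The groups did not overlap, and the rise was 1.39-fold (log2 0.47 ± 0.12 SE, edgeR adjusted p = 0.0211). The call was lost without any 1 of the control libraries, B35 replicate 2 or B35 replicate 3 (edgeR adjusted p from just over the threshold to 0.0947). KDM6A, its X-linked relative, had 44.0, 35.9 and 36 CPM with B35 and 36, 35.4 and 37.3 CPM in control cells and did not pass (log2 0.09 ± 0.11 SE). EZH2 and EZH1, the writers of H3K27 methylation, lie outside the rule and did not pass, with log2 fold changes of -0.30 ± 0.10 and 0.08 ± 0.13 (SE). For EZH2 the edgeR adjusted p was 0.0589.

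**Figure D2:**
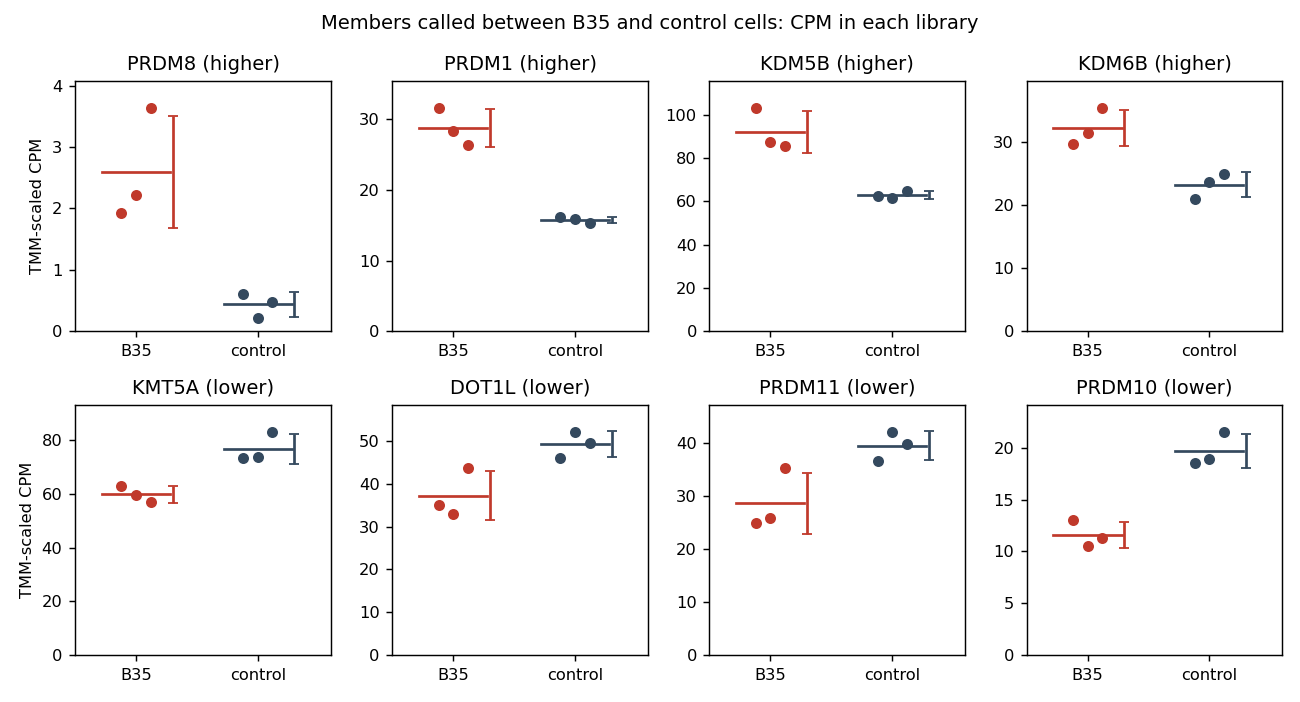
TMM-scaled CPM of the 8 members that changed, with 1 point per library, a line at the mean and a bar of 1 SD beside it (3 libraries a group, B35 left of control). In every panel the B35 points lie wholly on one side of the control points.

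DOT1L (ENSG00000104885, chromosome 19, 2164149 to 2232578, plus strand), the H3K79 methyltransferase, had 35, 32.9 and 43.7 CPM with B35 and 46.1, 52.3 and 49.5 CPM in control cells. The highest B35 library lay just under the lowest control library, and the fall was 1.32-fold (log2 -0.41 ± 0.12 SE, edgeR adjusted p = 0.0460). This call was lost with upper-quartile scaling (0.0591) and without any 1 of the control libraries or B35 replicate 2 (edgeR adjusted p between 0.0849 and 0.147). DOT1L shares 4.7% of its exon length with PLEKHJ1 and 6.8% with AC004490.1, both on the opposite strand, and the sources used here do not give the strand setting of the counting.

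KMT5A (ENSG00000183955, chromosome 12, 123383773 to 123409358, plus strand), which monomethylates H4K20 and varies through the cell cycle, had 63.0, 59.4 and 57.0 CPM with B35 and 73.3, 73.8 and 83.2 CPM in control cells. The groups were well apart, and the fall was 1.28-fold (log2 -0.36 ± 0.10 SE, edgeR adjusted p = 0.0292). It was lost without any 1 of the control libraries, B35 replicate 2 or B35 replicate 3 (edgeR adjusted p between 0.0651 and 0.171). KMT5B and KMT5C, which add the further methyl groups at H4K20, did not pass, with log2 fold changes of 0.17 ± 0.12 and 0.01 ± 0.18 (SE). Of 14 genes used as markers of proliferation, 7 fell and none rose, while 6.59% of all genes fell and 8.82% rose. The summed level of the 14 was 3600 to 3749 CPM in the B35 libraries and 4040 to 4217 CPM in the control libraries. MCM6, a subunit of the replicative helicase, fell by 0.49 and PCNA, the sliding clamp of DNA replication, by 0.48 on the log2 scale (edgeR adjusted p = 0.00488 and 0.00562). Other genes of the list lay above 0 without passing: MKI67 and TOP2A, markers of cycling cells, each had a log2 of 0.15, and CCNB1, a mitotic cyclin, had 0.24 (edgeR adjusted p = 0.0809), with every B35 library above every control library. These 3 were named after their values were seen. The part of proliferation in the fall of KMT5A was not tested.

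The enzymes that act on H3K36 had no call. Among the H3K36 methyltransferases and the KDM2 demethylases ASH1L, a methyltransferase, had the smallest adjusted p, with 122, 87.2 and 102 CPM with B35 and 83.3, 80.0 and 83.6 CPM in control cells. The groups did not overlap, but the difference missed the threshold (log2 0.34 ± 0.12 SE, edgeR adjusted p = 0.0824). It passed without B35 replicate 2 (log2 0.44, edgeR adjusted p = 0.0391), with no filter beyond 1 count (0.047) and with GC and length trends removed (0.0203), while without B35 replicate 1 the log2 was 0.20 (0.123). SETD2, which makes trimethylated H3K36 during transcription, had a log2 of -0.01 ± 0.11, and NSD1, NSD2 and NSD3, which make the dimethylated form, had -0.16, -0.05 and -0.06. On the removing side, KDM2A had a log2 of 0.19 ± 0.10 and KDM2B, which also brings a Polycomb complex to CpG islands, had -0.22 ± 0.10 (SE). KDM2B had 41.1, 43.7 and 48.1 CPM with B35 and 50.1, 53.0 and 52.0 CPM in control cells, groups that did not overlap (edgeR adjusted p = 0.152).

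No writer of H3K9 methylation passed. The 6 members ran from -0.25 for SUV39H2 to 0.16 for SETDB1 on the log2 scale, with EHMT1 and EHMT2, which make dimethylated H3K9 in euchromatin, at -0.10 ± 0.09 and -0.04 ± 0.11 (SE). SUV39H2, which trimethylates H3K9 in heterochromatin, had 20.9, 18.1 and 17.9 CPM with B35 and 23.5, 21.8 and 22.2 CPM in control cells. These groups did not overlap, but the gene did not pass (edgeR adjusted p = 0.175). SETDB1 shares 13.4% of its exon length with CERS2, and SUV39H1 20.3% with AC231533.1, both on the opposite strand.

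No eraser of H3K9 methylation passed either, and KDM3B had a log2 of -0.02 ± 0.09 (SE). KDM3A, which removes mono- and dimethylation, had 65.1, 48.1 and 49.6 CPM with B35 and 44.1, 42.1 and 44.5 CPM in control cells. The groups were apart, with B35 replicate 1 far above the rest (log2 0.32 ± 0.12 SE, edgeR adjusted p = 0.109), and without that library the log2 was 0.16. KDM7A, which removes dimethylation from H3K9 and H3K27, at 10.3, 7.38 and 8.22 CPM with B35 and 6.36, 6.87 and 5.83 CPM in control cells, also stood apart without passing (log2 0.44 ± 0.17 SE, edgeR adjusted p = 0.109). KDM4A, which acts on trimethylated H3K9 and H3K36, lay the other way, at 18.7, 21.7 and 19.8 CPM with B35 and 25.1, 24.1 and 27.8 CPM in control cells (log2 -0.36 ± 0.12 SE, edgeR adjusted p = 0.0612). It shares 40.2% of its exon length with AL451062.3 on the same strand, so reads there could be lost or split. Of 4 members reported as induced by low oxygen in other cells, KDM3A, KDM4B, KDM4C and KDM5B, only KDM5B passed, and KDM4B and KDM4C had log2 fold changes of -0.10 and -0.14.

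Among genes with a PRDM symbol 4 of 9 tested passed, where 15.4% of all genes tested did. Relatives under other symbols lie outside the rule and are not counted in the 9. The 4 that passed include PRDM8, which met the count filter only through its B35 libraries, so the 4 are given as a description. PRDM1 (ENSG00000057657, chromosome 6, 106086320 to 106109939, plus strand), also called BLIMP1, is a repressor that drives plasma cell differentiation. It had 31.6, 28.3 and 26.4 CPM with B35 and 16.1, 15.8 and 15.3 CPM in control cells. The lowest B35 library was well above every control library, and the control libraries lay close together. The rise was 1.82-fold (log2 0.87 ± 0.12 SE), with the smallest adjusted p among the members (edgeR 0.00113), and it passed in all 15 alternative fits.

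PRDM8 (ENSG00000152784, chromosome 4, 80183879 to 80204329, plus strand), a repressor known from neural development in mice, had 34, 40 and 69 counts with B35 and 11, 4 and 8 counts in control cells. That is 1.92, 2.22 and 3.64 CPM with B35, against 0.61, 0.22 and 0.48 CPM in control cells, so the groups were apart at a low level, and B35 replicate 3 was the highest. The rise was 5.88-fold (log2 2.56 ± 0.42 SE, edgeR adjusted p = 0.00319), and it ranged from 2.23 to 2.89 on the log2 scale over the 15 alternatives, passing in each. PRDM8 was the 1 tested member that met the count filter only through its B35 libraries, so a gene like it had to differ to be tested at all. Its control level rests on 23 counts in all.

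PRDM10 (ENSG00000170325, chromosome 11, 129899706 to 130002835, minus strand), a zinc finger factor needed for development in mice, had 13.0, 10.5 and 11.3 CPM with B35 and 18.6, 18.9 and 21.6 CPM in control cells. The groups were far apart relative to their spread, and the fall was 1.70-fold (log2 -0.76 ± 0.13 SE, edgeR adjusted p = 0.00422). It was the only fall among the members that passed in all 15 alternative fits. PRDM11 (ENSG00000019485, chromosome 11, 45095806 to 45235110, plus strand) had 24.8, 25.8 and 35.2 CPM with B35 and 36.5, 42.1 and 39.7 CPM in control cells. B35 replicate 3 came close to the lowest control library, and the fall of 1.38-fold (log2 -0.46 ± 0.14 SE, edgeR adjusted p = 0.0471) was lost in 6 alternatives. Those were upper-quartile scaling (0.0557) and the fits without any 1 of the control libraries, B35 replicate 1 or B35 replicate 2 (edgeR adjusted p between 0.0586 and 0.141).

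No other PRDM gene tested passed. PRDM4 had 48.7, 49.6 and 44.6 CPM with B35 and 49.8, 47.6 and 47.1 CPM in control cells, values that overlapped closely (log2 -0.02 ± 0.09 SE). PRDM2, which was found as a partner of the retinoblastoma protein, and PRDM15 had log2 fold changes of -0.02 and 0.11. PRDM12, known from human pain-sensing neurons, had 0.62, 1.05 and 1.00 CPM with B35 and 2.06, 1.22 and 1.07 CPM in control cells. The groups were just apart, and the estimate was wide (log2 -0.70 ± 0.37 SE, edgeR adjusted p = 0.231).

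Several of the remaining SET domain proteins are best known for substrates other than histones. None of the 4 tested SMYD genes or the 5 other SETD genes passed, with log2 fold changes from -0.23 for SETD3, which methylates a histidine of actin, to 0.23 for SMYD3. SMYD2, which methylates proteins such as p53, had 47.3, 46.4 and 50.3 CPM with B35 and 54.5, 53.2 and 56.4 CPM in control cells. The groups did not overlap, but the difference of log2 -0.19 ± 0.09 (SE) did not pass (edgeR adjusted p = 0.190). SETD6 shares 21.4% of its exon length with CNOT1 on the opposite strand. The JmjC hydroxylases KDM8 and RIOX1 had log2 fold changes of 0.06 ± 0.25 and -0.24 ± 0.15 (SE).

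In 13 members the 3 B35 libraries lay wholly above or below the 3 control libraries without a call, 6 above and 7 below. Together with the 8 called members that made 21 of 57, or 36.8%, against 36.3% of all genes tested. By direction, 17.5% lay above and 19.3% below, against 18.8% and 17.5% of all genes.

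Levels between genes were compared by the deposited FPKM, which corrects for exon length. KDM5C was the most abundant member by a wide margin, at 30.9 ± 3.27 FPKM with B35 and 31.9 ± 2.38 FPKM in control cells (SD, n = 3 each). KMT5A had the next highest mean, at 12.9 ± 0.68 FPKM with B35 and 16.7 ± 1.26 FPKM in control cells. SUV39H1 was at 12.2 ± 1.30 FPKM with B35 and 13.8 ± 0.55 FPKM in control cells. Its range overlapped that of KMT5A in B35 cells and lay below it in control cells. SUV39H1, SETD5, KDM3B, SMYD5 and EHMT2 followed each other with overlapping ranges, so the order of these 5 is not fixed by these libraries. In all, 8 members averaged 10 FPKM or more, 44 lay between 1 and 10, and 8 had a lower level above 0. The KDM5 genes thus span a wide range, with KDM5A at 4.2 ± 0.44 and KDM5B at 3.51 ± 0.37 FPKM with B35, against 3.56 ± 0.18 and 2.42 ± 0.08 FPKM in control cells. KDM5B lay below KDM5A in each library by FPKM but above it in each library by CPM, which is not divided by length. The merged exons of KDM5B span 25.9 kb and those of KDM5A 12.1 kb, so their order depends on the length used.

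**Figure D3:**
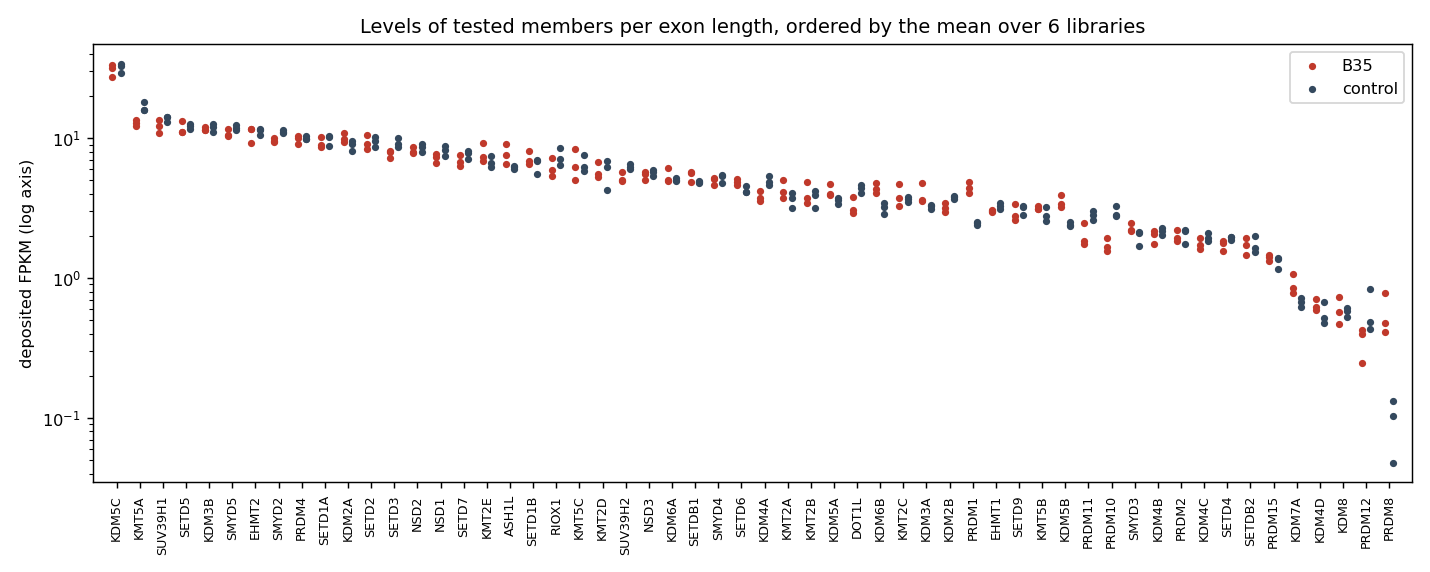
Deposited FPKM of 56 of the 57 tested members in each library on a log axis, ordered by their mean over 6 libraries, with B35 libraries left of control libraries. KDM5C stands above all others and PRDM8 lies lowest in the control libraries.

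The other 10 members had too few counts to test. PRDM16 had 1, 7 and 5 counts with B35 and 5, 0 and 0 counts in control cells, PRDM6 had 3 counts with B35 and 8 in control cells, and PRDM7 had 1 count in all. No read was counted for KDM4E, KDM4F, KDM5D, SMYD1, PRDM9, PRDM13 and PRDM14. A count of 0 allows up to 3 counts, or 0.162 to 0.175 CPM in a single library, and this limit covers counting error only. KDM4D, KDM4E and KDM4F are close copies, as are PRDM7 and PRDM9, so reads from them may not have been assigned to 1 gene.

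B35 replicate 1 stood apart from the other B35 libraries in a way that ran with base composition. In 23 of 57 members its CPM differed by more than 0.25 on the log2 scale from the mean of the other B35 libraries, or 40.4%, against 48.1% of all genes tested. It was higher in the GC-poor genes KMT2C, KDM3A, KDM7A and KMT2E (log2 0.43, 0.41, 0.40 and 0.38) and lower in the GC-rich genes PRDM12, PRDM8 and KMT5C (log2 -0.73, -0.61 and -0.53). Spearman's rho between this log2 ratio and the GC content of the longest transcript was -0.81 over 57 members and -0.57 over 14766 tested genes. B35 replicate 3, set against a mean that includes B35 replicate 1, had a rho of 0.74 over the members. That value thus depends in part on B35 replicate 1. Control replicate 1, set against the other control libraries, had a rho of -0.48. These correlations are across genes of the same libraries, which are not independent, and carry no test. The fold change between groups ran less with GC content (rho -0.24 over the members and 0.12 over all genes tested).

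**Figure D4:**
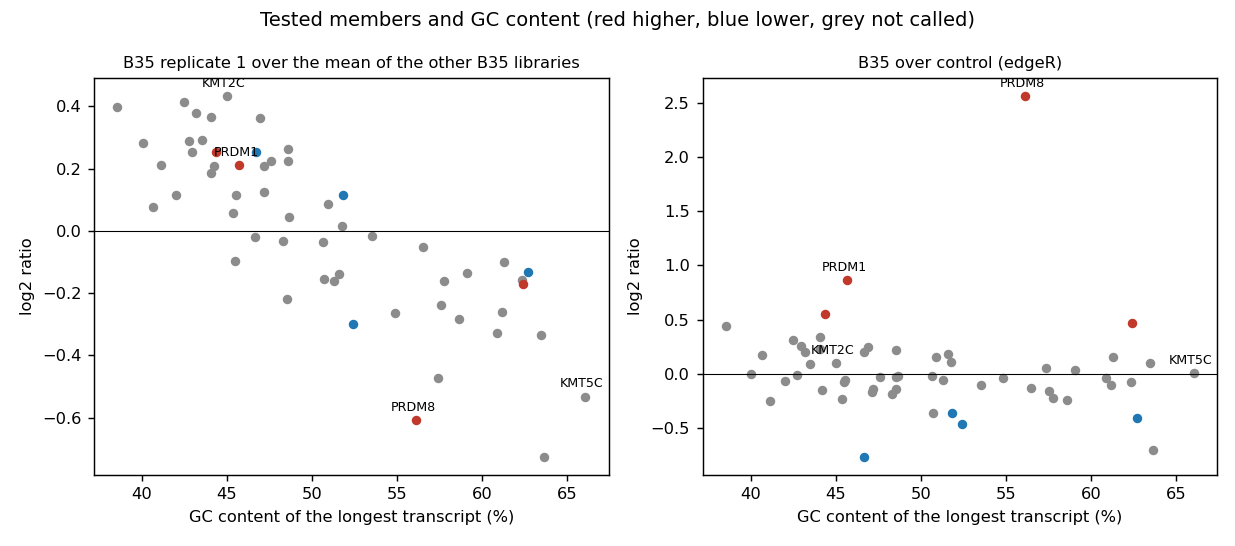
GC content of the longest transcript of 56 of the 57 tested members (horizontal, %) against the log2 ratio of B35 replicate 1 to the mean of the other B35 libraries (left) and the log2 fold change of B35 over control (right). The left panel falls with GC content (rho -0.81 over all 57), and the right panel is flatter (rho -0.24 over all 57).

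With the trends of every library on GC and exon length taken out, 7 members rose and 7 fell, or 24.6% of those tested, against 26.3% of all genes in the same fit. The 8 members called without this step were all among them. The 6 further members were ASH1L, KDM3A and KDM5A, which rose by log2 0.29, 0.27 and 0.23, and KDM4A, KDM2B and NSD1, with log2 fold changes of -0.37, -0.33 and -0.23 (edgeR adjusted p from 0.0051 to 0.048). Of these 6, only ASH1L also passed in another alternative.

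**Figure D5:**
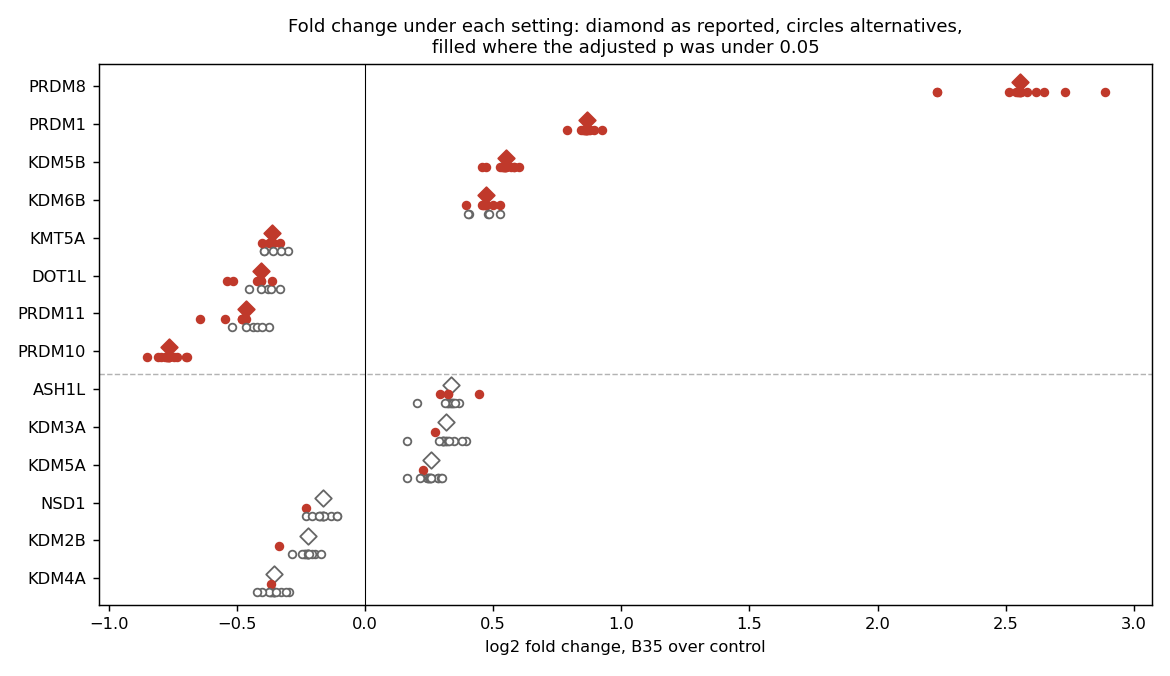
Log2 fold change of B35 over control for the 8 called members (above the dashed line) and the 6 members called only in an alternative (below it), with the reported fit as a diamond and 15 alternatives as circles, filled where the adjusted p was under 0.05. PRDM8, PRDM1, KDM5B and PRDM10 are filled throughout, and no gene crosses 0.

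Related genes outside the rule were counted beside the 15.4% of all genes tested that changed. None of 14 subunits and partners of the COMPASS complexes, which hold the SETD1 and KMT2 enzymes, and none of 13 readers and partners of H3K9 methylation passed. Of 12 other JmjC proteins tested 1 fell, RIOX2, at 16.5 ± 0.89 CPM with B35 and 22.3 ± 1.59 CPM in control cells (edgeR adjusted p = 0.0290). Of 8 tested arginine methyltransferases 1 fell, PRMT7 (log2 -0.44 ± 0.10 SE, edgeR adjusted p = 0.0168). None of 9 other lysine methyltransferases passed, and KDM1B had a log2 of 0.04 ± 0.14 (SE). Of 20 tested enzymes that supply or consume methyl donors, 2-oxoglutarate and its competitors, 7 fell and 1 rose, where 6.59% of all genes fell and 8.82% rose. Over all these lists 10 of 78 tested genes changed, a count that was 21 with GC and length trends removed and 3 to 16 without 1 library.

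The genes that fell encode isocitrate dehydrogenases, fumarate hydratase and subunits of succinate dehydrogenase. IDH1, a cytosolic enzyme that makes 2-oxoglutarate, was at 118 ± 6.48 CPM with B35 and 171 ± 8.71 CPM in control cells (log2 -0.54 ± 0.09 SE, edgeR adjusted p = 0.00376). FH, which consumes fumarate, a competitor of 2-oxoglutarate, was at 173 ± 16.8 CPM with B35 and 257 ± 13.3 CPM in control cells (log2 -0.57 ± 0.10 SE, edgeR adjusted p = 0.00422). IDH3A and IDH3G, subunits of the mitochondrial enzyme, had log2 fold changes of -0.50 and -0.40. The 1 that rose was IDH2, which was named after its value was seen (log2 0.30 ± 0.09 SE, edgeR adjusted p = 0.0495).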

How the data were processed

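RNA was extracted with TRIzol and made into libraries with a NEBNext Ultra kit, per the labels' protocols. The submitters' processing notes list HISAT2 2.0.5 (an aligner), featureCounts 1.5.0-p3 (a read counter) and the build hg38, and the strand setting was not found in the sources used here. The files deposited by the authors hold a whole-number count and an FPKM value for each gene. Symbols, positions and exon overlaps came from GENCODE 29. Counts were tested with edgeR 4.0.16 in R 4.3.3 (quasi-likelihood, two-sided, filterByExpr with a minimum count of 10 and total of 15, TMM scaling), adjusted over 14773 genes. The SE is the log2 fold change over the square root of F. The fitting step was tested on simulated counts with the same dispersion for every gene and no GC or length trend. That check does not cover the GC trends of these libraries. Counts of replicates differed beyond sampling noise, with a chi-square of 4.71 to 35.2 per degree of freedom, so each counted as 1. Depth was similar in all libraries, and precision was limited by low counts and, at higher counts, by the spread between libraries. Alternatives used relative log expression (RLE) and upper-quartile scaling, other filters, robust dispersion, DESeq2 1.42.0, voom in limma 3.58.1, a replicate block, GC and length trends removed, and each library left out. The members, gene lists and tests were chosen with earlier results of these data known. Every member could be named, but 1 tested member counted here is not reported by name or drawn, and of the other lists KDM1A, KDM1B, EZH1, EZH2 and up to 4 genes that passed, by adjusted p. Cell type markers were named to describe the cells. Figures were drawn with matplotlib 3.10.9, and tables with pandas 2.3.3, in Python 3.11.15.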

Additional observations from a re-analysis of the deposited data

How the results depend on the processing

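The number of changed members stayed within 1.5 times of 8 under RLE and upper-quartile scaling, both other filters, robust dispersion, DESeq2 (8) and voom (8). Upper-quartile scaling left 2 falls. With GC and length trends removed there were 14 changed members, 7 higher and 7 lower, 21 changed genes of the other lists against 10, and 3891 of all genes, 1954 of them lower. The fits without 1 library gave 4 to 7 changed members, 3 to 4 higher and 1 to 3 lower, 3 to 16 genes of the other lists, and 881 to 3342 of all genes, 587 to 1822 higher and 294 to 1520 lower. The lowest counts over all genes came without control replicate 3 and the highest without B35 replicate 1. The smaller fits have fewer libraries, and the cause of the other shifts was not tested. Deviations of same-numbered libraries correlated at 0.16, 0.02 and -0.06 across genes. Single libraries also ran with GC content, which can move such correlations, so whether the replicate numbers pair the libraries was not settled. With the replicate block 9 members, ASH1L among them (adjusted p = 0.0452), and 2855 genes passed, and control replicate 2 correlated best with B35 replicate 3 (0.25). Of the 8 called members, 4 lost the call in at least 1 of 15 alternatives and none changed sign. Depth limits PRDM8, PRDM12, KDM4D and KDM8, with SE of 0.42, 0.37, 0.27 and 0.25 against a median of 0.12.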
